A study of Mus musculus with 8 samples.

Results

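CD300, SIRP and PIR proteins are paired receptors of myeloid cells, and 10 mouse genes of these families were examined here: Cd300a, Cd300lb, Cd300ld, Cd300lf and Cd300e in the CD300 cluster of chromosome 11, Sirpa on chromosome 2, Sirpb1a, Sirpb1b and Sirpb1c in tandem on chromosome 3, and Pirb, the paired immunoglobulin-like receptor B, on chromosome 7. Accessible chromatin was measured by ATAC-seq, which tags open DNA with a transposase. A region was counted for a gene when that gene was the nearest protein-coding gene span within 100 kb, and 39 of 68800 regions belonged to the 10 genes. All 10 genes had a region. The farthest lay 32636 bp from its gene, and no region with one of these genes as its nearest fell outside the 100 kb limit. Positions are on mm10.

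The cells were AML246, a mouse acute myeloid leukaemia line grown with IL-3, in which doxycycline (Dox, 0.1 µg/mL) restored the transcription factor PU.1 and its withdrawal brought back the knockdown, per the labels. The groups were CD11b-high viable cells sorted at day 12 on Dox, total viable cells at day 0 (untreated) and at day 4, 8 and 12 on Dox, and total viable cells at 4, 8 and 12 days after Dox was withdrawn on day 12. Each of the 8 groups held 1 library, so no test between conditions was possible and no difference has a replicate check. No group received Dox without restoration of PU.1, so effects of the drug and of PU.1 cannot be told apart.

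Paired receptors come as inhibitory and activating forms with like extracellular domains. Inhibitory members such as Cd300a, Cd300lf, Sirpa and Pirb carry tyrosine motifs in long cytoplasmic tails, which recruit the phosphatases SHP-1 (Ptpn6) and SHP-2 (Ptpn11). Activating members have short tails and signal through partner chains such as DAP12 (Tyrobp) or the Fc receptor gamma chain (Fcer1g). PU.1 is an ETS-family factor that binds sequences with a GGAA core and is required for the development of macrophages and granulocytes.

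For each library the deposited file lists peak summits, each with a score taken to be −log10 of a p-value or of a q-value. "Open" means that a library had a summit in the region, and "not open" means only that none was called. Scores depend on the depth of a library, not given in the sources used here; they describe a summit without comparing libraries. The lists held 31957 to 51175 summits, the shortest at 12 days off and the longest at 4 days off. In a mixed population, fewer cells with a region open and less accessibility per cell cannot be told apart. Itgam, the gene of CD11b, had 3 of its 6 regions open in CD11b-high cells, 1, 3, 3 and 2 in total cells at day 0, 4, 8 and 12, and 4, 3 and 2 at 4, 8 and 12 days off, so this count does not set the sorted cells apart. The pan-leukocyte gene Ptprc had regions open in every library, between 4 and 11 of 14.

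Regions absent from the day-0 list and present in those of day 4, 8 and 12 are called gained, regions of the day-0 list that none of these 3 held lost, and regions present in all 4 constant. The paired receptor genes held 10 gained, 1 lost and 10 constant regions among 39. Gained regions lay at Sirpb1b (3), Cd300lf (2), Sirpb1a (2), Cd300a (1), Sirpa (1) and Pirb (1), and the lost region lay at Sirpa. The shares were 25.6% gained (exact Clopper-Pearson 95% interval 13.0 to 42.1), 2.56% lost (0.0649 to 13.5) and 25.6% constant (13.0 to 42.1). Of the 64638 regions with a gene within reach, 4.86% were gained, 5.49% lost and 32.5% constant. The genes were chosen with these calls known, so the shares describe them and support nothing further, and the intervals cover counting error only. With summits of a score of at least 10 there were 6 gained regions, 0 lost and 6 constant ones, among 23. At that score 3.74% of all assigned regions were gained, 5.01% lost and 32.2% constant. The low lost count depended on the processing. With lists of equal length 3 of 32 regions were lost, 9.38% against 7.32% of all assigned regions. With a half-width of 100 bp 3 of 43 were lost, 6.98% against 5.98%, and with a score of at least 5 it was 2 of 35, 5.71% against 4.92%. The other 18 regions followed none of the 3 rules, and 5 regions were open in 1 library.

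**Figure D1:**
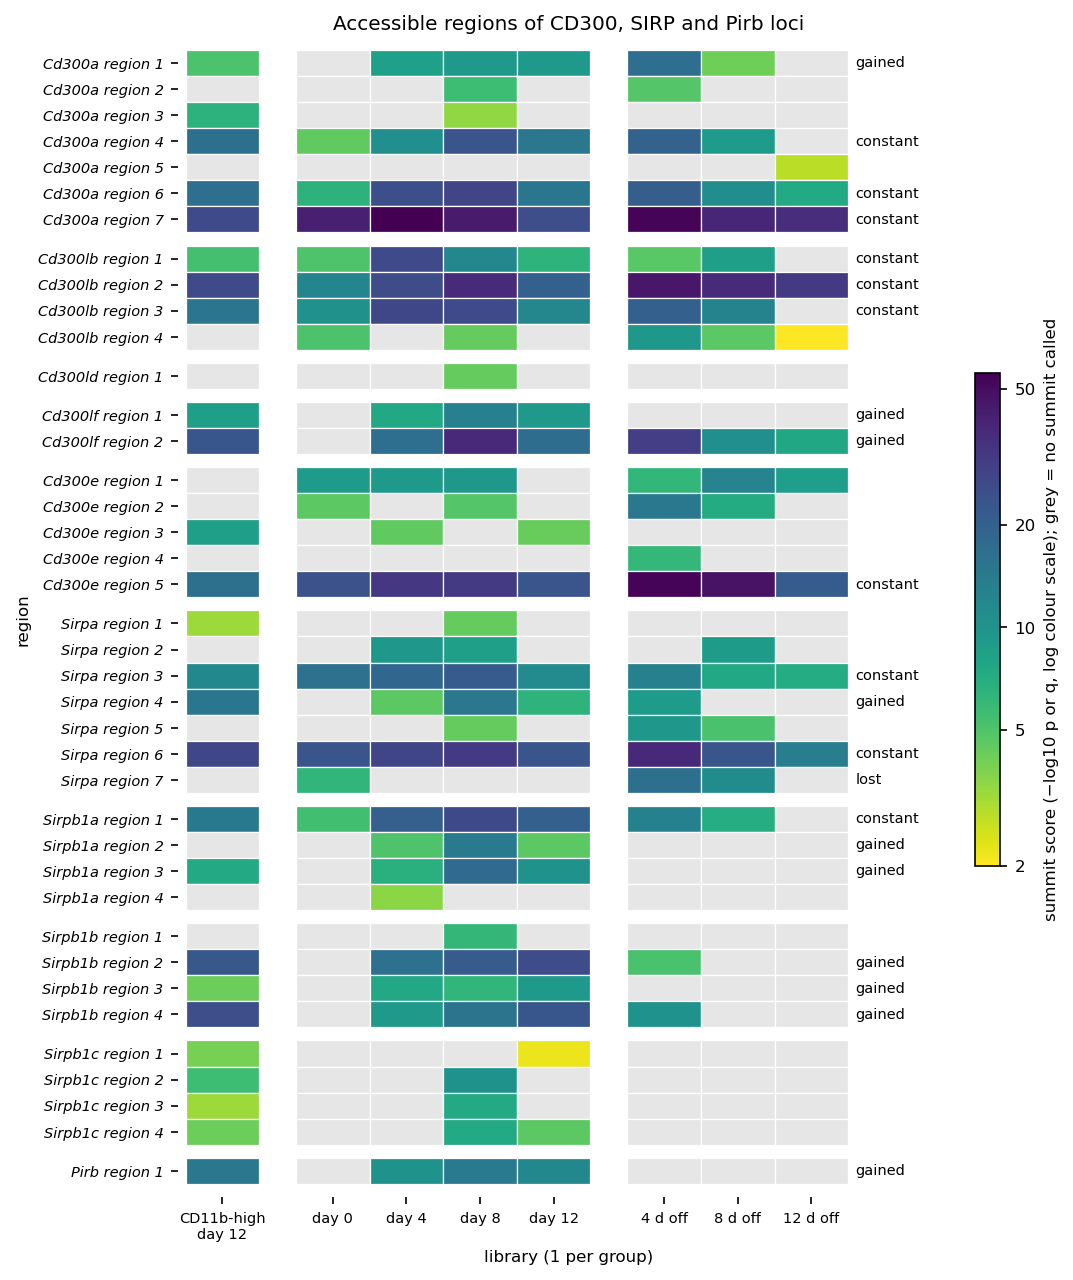
Score of the summit in each of the 39 regions (rows, grouped by gene) in each of the 8 libraries (columns, 1 library per group), with a log colour scale; grey marks no summit called, and the class by the restoration libraries stands at the right. The gained rows of Sirpb1a, Sirpb1b and Pirb are grey at day 0 and at 8 and 12 days off; colours are not comparable between libraries.

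Among the inhibitory receptors, Pirb (chr7:3712505-3720382, minus strand), a receptor for MHC class I, had 1 region, and it was gained. The region at chr7:3720265-3720613 covers the start of the gene. It scored 14.9 in CD11b-high cells, and it was not open at day 0, scored 10.3, 14.4 and 11.7 at day 4, 8 and 12 on Dox and had no summit at 4, 8 or 12 days off. The calls were thus confined to the 4 libraries on Dox. The nearest day-0 summit lay 16421 bp away. Of the related Pira genes, Pira1 and Pira2 had no region, and Pira6, Pira12 and Pira13 were not matched in the gene table. Whether reads placed at Pirb could come from a Pira gene was not tested. The promoter of Pirb is shown because the gained region overlaps 281 of its 300 bases. It runs from 250 bases before to 50 after the annotated start (RefSeq, GRCm38.p6, chr7:3720333-3720632, minus strand), and capitals mark GAGGAA or its reverse complement TTCCTC, a core that PU.1 can bind.
Pirb promoter: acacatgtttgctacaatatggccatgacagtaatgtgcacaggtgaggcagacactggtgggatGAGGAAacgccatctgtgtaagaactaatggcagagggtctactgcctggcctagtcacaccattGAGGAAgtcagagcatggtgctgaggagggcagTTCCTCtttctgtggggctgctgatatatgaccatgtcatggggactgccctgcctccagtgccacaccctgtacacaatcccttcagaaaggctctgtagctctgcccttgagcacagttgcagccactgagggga
The 3 matches begin 185, 120 and 87 bases before the start.

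Cd300lf (chr11:115116214-115135372, minus strand) encodes an inhibitory CD300 receptor that binds lipids and is the entry receptor of murine norovirus. Both of its regions were gained. The region at chr11:115133808-115134155 scored 22.8 in CD11b-high cells, and it was not open at day 0, scored 17.0, 38.3 and 17.1 at day 4, 8 and 12, and 30.5, 10.8 and 7.63 at 4, 8 and 12 days off. It was the 1 gained region of these genes that was still open at 12 days off. The other, at chr11:115119458-115119876, scored 8.58 in CD11b-high cells and 7.57, 13.2 and 9.17 at day 4, 8 and 12, and was not open at day 0 or at any time off. The 2 regions of 1 gene thus differed in whether they were called after withdrawal. Both also lie inside Rab37, a Rab GTPase gene whose span contains Cd300lf, so they belong to either gene by distance, and without them there were 8 gained regions. Rab37 had 9 regions in all, with 3 gained and 1 lost. The promoter of Cd300lf (chr11:115133943-115134242, minus strand) is shown because the first of these regions overlaps 213 of its bases. Its start base lies inside the gene span, not at the end of it, and "start region" means the region at that base. The same letters are in capitals.
Cd300lf promoter: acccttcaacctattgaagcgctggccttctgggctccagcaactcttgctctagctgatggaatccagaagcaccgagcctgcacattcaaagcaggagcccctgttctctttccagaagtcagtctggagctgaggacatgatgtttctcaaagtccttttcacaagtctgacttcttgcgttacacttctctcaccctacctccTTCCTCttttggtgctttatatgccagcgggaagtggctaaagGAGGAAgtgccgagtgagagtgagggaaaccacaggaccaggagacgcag
One match begins 43 bases before the start and the other begins at the start base itself.

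Cd300a (chr11:114889152-114901946, plus strand), an inhibitory receptor for phosphatidylserine and phosphatidylethanolamine, had 7 regions, of which 1 was gained, 3 were constant and none was lost. The gained region at chr11:114882832-114883261, 6106 bp before the gene, scored 5.13 in CD11b-high cells, and it was not open at day 0, scored 8.51, 9.19 and 9.26 at day 4, 8 and 12, then 16.9 and 4.17 at 4 and 8 days off, with no summit by 12 days off. The region at chr11:114889996-114890559, which covers the start base of the promoter window below and lies inside the gene span, was open in every library except that of 12 days off. It scored 16.5 in CD11b-high cells, 4.51, 10.7, 23.3 and 14.8 at day 0, 4, 8 and 12 and 19.9 and 9.11 once Dox had been off for 4 and 8 days. Within the day-0 list this summit stood at the 9.86th percentile, and within the day-12 list at the 68.3rd. A low rank at day 0 lies near the calling limit, so a constant class does not mean a like signal. The regions at chr11:114898028-114898441 inside the gene and chr11:114907599-114908051 beyond it were open in all 8 libraries, the second at or above the 85.8th percentile of every list. The promoter (chr11:114889791-114890090, plus strand) is shown because this region, which was called at day 0, overlaps 95 of its bases. The overlap comes only from the 150 bp added on either side of each summit. The summits themselves lay beyond the window, inside the gene span. The regions at the promoters of Pirb and Cd300lf were not called at day 0.
Cd300a promoter: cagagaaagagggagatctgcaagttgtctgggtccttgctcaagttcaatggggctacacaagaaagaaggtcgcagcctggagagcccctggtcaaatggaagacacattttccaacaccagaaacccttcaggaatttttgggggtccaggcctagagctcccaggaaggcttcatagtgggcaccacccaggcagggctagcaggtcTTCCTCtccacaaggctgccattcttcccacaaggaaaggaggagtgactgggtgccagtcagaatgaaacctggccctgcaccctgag
Its 1 match begins 39 bases before the start.

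Sirpa (chr2:129591042-129632228) encodes the inhibitory receptor for CD47, the "do not eat me" signal of macrophages. It had 7 regions with 1 gained, 1 lost and 2 constant. The gained region at chr2:129595768-129596292 inside the gene scored 15.0 in CD11b-high cells, and it was not open at day 0, scored 4.62, 14.9 and 6.50 at day 4, 8 and 12 and 9.13 at 4 days off, with no summit at 8 and 12 days. The lost region at chr2:129658109-129658525 lay 26089 bp beyond the gene, the second farthest of the 39. It scored 6.33 at day 0, was not open at day 4, 8 or 12 or in CD11b-high cells, scored 16.5 and 11.2 at 4 and 8 days off and had no summit at 12 days. The 2 regions thus had opposite calls at day 0 and on Dox, while both were open at 4 days off and neither at 12 days off. The 2 constant regions, at chr2:129592490-129593466 near the low-coordinate end of the gene and at chr2:129633129-129633746 beyond its other end, were open in all 8 libraries with scores of 7.15 to 21.8 and 13.7 to 38.2. The other 3 regions had scores of at most 9.62 and were open in 2 or 3 libraries each.

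The activating SIRP genes Sirpb1a (chr3:15371661-15426522), Sirpb1b (chr3:15495754-15575067) and Sirpb1c (chr3:15795147-15848530), all on the minus strand, held 12 regions, and the midpoints of all 12 lay outside the genes, beyond the end that holds the start. The SIRPβ protein pairs with DAP12. The windows of Sirpb1b and Sirpb1c around the start are shown because they tell how alike these copies are there. Capitals stand at the bases that differ between the 2 in the aligned stretch (RefSeq, GRCm38.p6).
Sirpb1b promoter (chr3:15575016-15575315, minus strand): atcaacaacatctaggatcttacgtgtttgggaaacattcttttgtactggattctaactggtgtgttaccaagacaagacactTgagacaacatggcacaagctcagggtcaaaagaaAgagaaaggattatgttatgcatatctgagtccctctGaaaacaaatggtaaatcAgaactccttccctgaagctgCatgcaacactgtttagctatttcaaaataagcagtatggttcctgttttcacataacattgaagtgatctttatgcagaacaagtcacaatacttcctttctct
Sirpb1c promoter (chr3:15848438-15848737, minus strand): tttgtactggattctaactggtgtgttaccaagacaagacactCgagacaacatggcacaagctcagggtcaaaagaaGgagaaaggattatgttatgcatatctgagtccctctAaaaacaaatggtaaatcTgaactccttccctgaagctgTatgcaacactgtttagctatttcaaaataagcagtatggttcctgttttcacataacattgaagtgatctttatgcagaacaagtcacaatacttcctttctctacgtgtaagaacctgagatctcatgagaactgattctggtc
These 2 windows were identical at 254 of 259 aligned columns (98.1%), and that of Sirpb1a at 198 of 207 columns with Sirpb1b (95.7%) and at 237 of 248 with Sirpb1c (95.6%). Reads from such copies may be placed at another copy or dropped, depending on the aligner, not given in the sources used here. Calls at the 3 genes are therefore uncertain as to which copy they belong to. Only these windows were compared, so how alike the copies are at the regions farther out is not known.

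The Sirpb1 regions repeated in part from copy to copy in position. A region lay 1598 bp from the gene at Sirpb1a, 1609 bp at Sirpb1b and 1577 bp at Sirpb1c. Farther out, 2 gained regions stood 9647 bp apart at Sirpb1a (chr3:15439834-15440198 and chr3:15449452-15449875) and 9650 bp apart at Sirpb1b (chr3:15586654-15587002 and chr3:15596267-15596690). These pairs began at different distances, 13494 bp from Sirpb1a and 11761 bp from Sirpb1b. The outer regions of Sirpb1c lay at 7407 and 13033 bp, 5626 bp apart. A region next to the gene, at 25 and 31 bp, was found at Sirpb1b and Sirpb1c and not at Sirpb1a.

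Among the 12 regions, 1 day-0 summit was listed, and it was placed at Sirpb1a, within the uncertainty over copies given above. The region 1598 bp from Sirpb1a (chr3:15427928-15428312) was open at day 0 and was classed as constant. It scored 14.5 in CD11b-high cells, 5.46, 20.6, 26.8 and 20.2 at day 0, 4, 8 and 12 and 13.1 and 7.08 at 4 and 8 days off, with no summit at 12 days. Its day-0 summit was at the 17.3rd percentile of that list. The region 1609 bp from Sirpb1b (chr3:15576485-15576868) was gained, with a score of 22.5 in CD11b-high cells, no call at day 0, scores of 16.3, 21.6 and 26.1 at day 4, 8 and 12 and 5.20 at 4 days off, and no call later. The nearest day-0 summit lay 148473 bp away. The gained region 21411 bp from Sirpb1b scored 25.5 in CD11b-high cells, 9.35, 15.6 and 22.8 at day 4, 8 and 12 and 10.2 at 4 days off, with no summit at day 0 or beyond 4 days off. The third gained region of Sirpb1b, 11761 bp out, had scores of 4.24 in CD11b-high cells and 6.32 to 9.17 on Dox and was not called elsewhere. At Sirpb1a the gained region 23141 bp out scored 7.48 in CD11b-high cells and 6.71, 17.8 and 10.4 at day 4, 8 and 12. The one 13494 bp out scored 5.08, 14.4 and 4.60 at these times and was the 1 gained region of the paired receptor genes not open in CD11b-high cells. Neither was open at day 0 or at any time off.

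Sirpb1c had no gained region, since none of its 4 regions was open at day 4. All 4 were open in CD11b-high cells, with scores of 3.25 to 5.72, against 2 in total cells of day 12, with 2.20 and 4.60. At day 8, 3 of them were open with scores of 7.43 to 10.3. None was open at day 0 or at 4, 8 or 12 days off. Over the 3 genes, 9 of 12 regions were open in CD11b-high cells, 1, 7, 10 and 8 at day 0, 4, 8 and 12, and 3, 1 and 0 at 4, 8 and 12 days off.

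**Figure D2:**
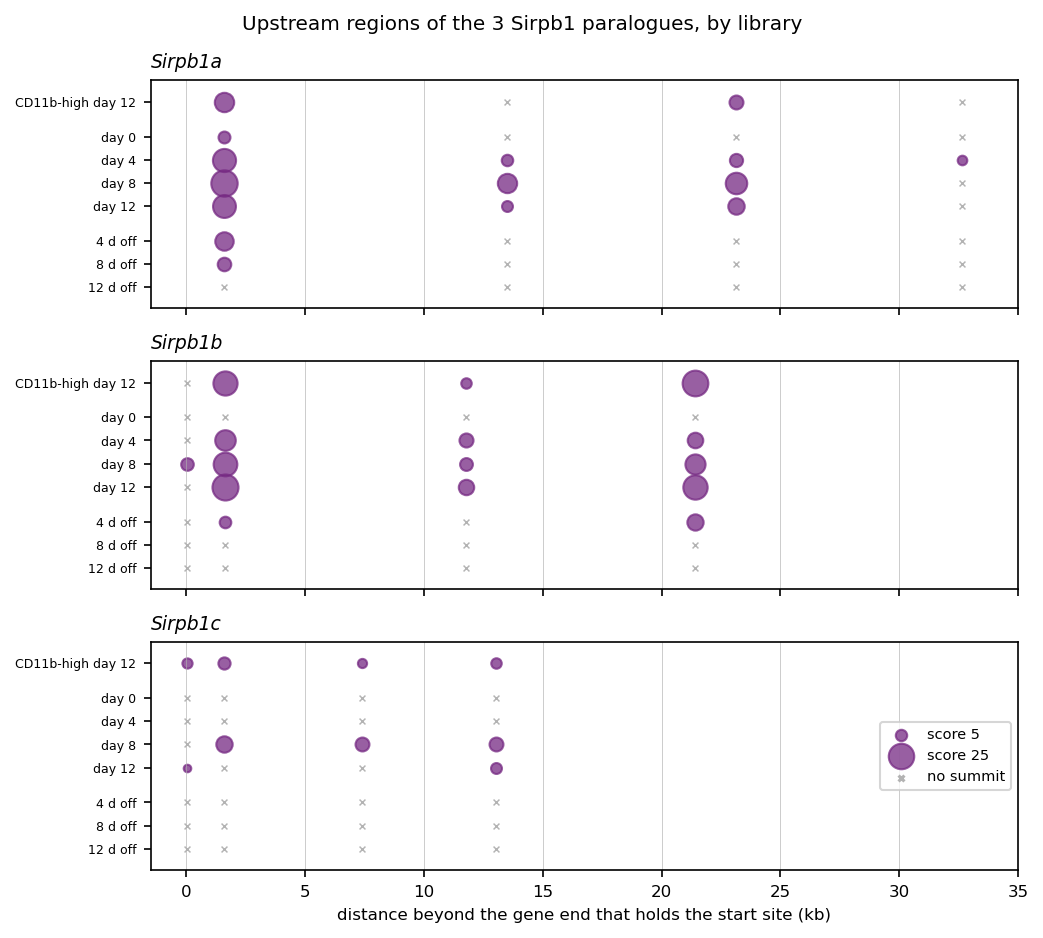
Regions of Sirpb1a, Sirpb1b and Sirpb1c by their distance in kb beyond the gene end that holds the start (x axis) and by library (y axis, 1 library per group); the area of a circle gives the summit score and a cross marks no summit. A region recurs in the 3 copies at 1598, 1609 and 1577 bp and the 1 day-0 summit listed at the 3 genes, with a score of 5.46, was placed at Sirpb1a.

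Of the activating CD300 genes, Cd300lb, Cd300ld and Cd300e held no gained and no lost region. Cd300lb had 1 more lost than gained region under 5 of the alternative settings and Cd300e under 2, among them lists of equal length for both. Cd300lb (chr11:114922779-114934371), whose product signals through DAP12, had 3 constant regions among 4. Those at chr11:114917115-114917533 outside the gene and chr11:114931038-114931429 inside it scored 26.2 and 15.2 in CD11b-high cells. The first was open in all 8 libraries, with scores of 12.2, 26.1, 37.4 and 20.3 at day 0, 4, 8 and 12 and 45.4, 37.4 and 31.6 at 4, 8 and 12 days off, and the second in all but that of 12 days off. The region at the start of Cd300lb, chr11:114933629-114934537, had summits at day 0, day 8 and every time off Dox, with scores of 2.01 to 9.42, and not in CD11b-high cells or at day 4 or 12. This merged region is 909 bp long, so summits of different libraries in it need not mark the same site. Cd300ld (chr11:114982443-114989886), whose product pairs with the Fc receptor gamma chain, had 1 region, at its start, which was open at day 8 with a score of 4.39 and in no other library.

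Cd300e (chr11:115051917-115066676), known in humans as an activating receptor of monocytes, had 5 regions, of which the constant one at chr11:115071734-115072347 was open in all 8 libraries with scores of 16.4 to 54.1. The region at chr11:115052180-115052591 was open at day 0, 4 and 8 (9.12, 9.35 and 9.41) and at 4, 8 and 12 days off (6.20, 12.4 and 8.70), and in neither day-12 library. At chr11:115058770-115059091 summits were called at day 0, day 8 and after 4 and 8 days off, but in neither day-12 library. By contrast the region at chr11:115059825-115060180 scored 8.64 in CD11b-high cells, 4.48 at day 4 and 4.32 at day 12, and was open nowhere else. Cd300e thus held, inside the gene, regions that were missing from both day-12 libraries beside a region that both had. A further region, at chr11:115060676-115060976, was open at 4 days off alone with a score of 6.06.

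By role, the 4 inhibitory genes held 5 gained regions among 17, 29.4% (10.3 to 56.0), and the 6 activating genes 5 among 22, 22.7% (7.82 to 45.4), with intervals that overlap widely. By family, the SIRP genes held 6 gained among 19, 31.6% (12.6 to 56.6), and the CD300 genes 3 among 19, 15.8% (3.38 to 39.6). Constant regions made up 15.8% (3.38 to 39.6) of SIRP and 36.8% (16.3 to 61.6) of CD300 regions. These intervals overlap, so the families were not told apart at this number of regions. Of all 39 regions, 38.5% lay inside a gene, against 58.7% of all assigned regions.

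**Figure D3:**
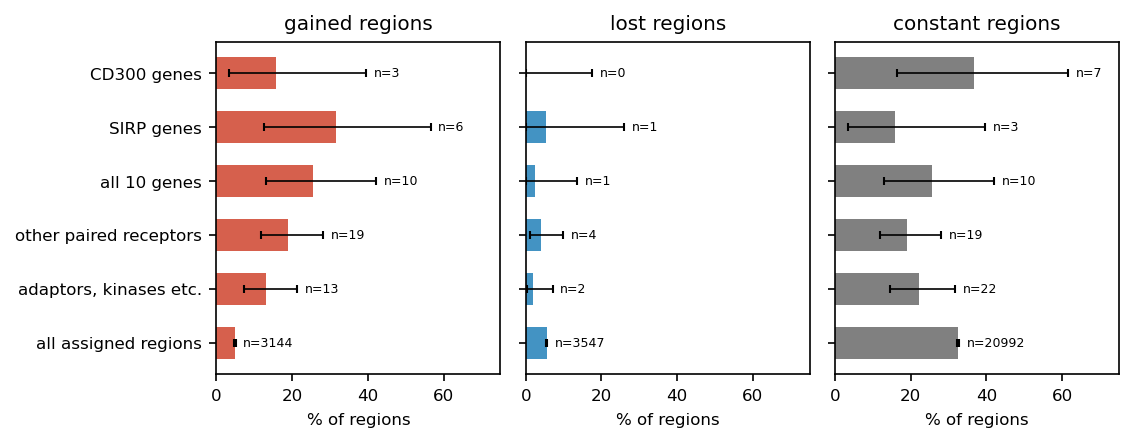
Share of regions (x axis, %) that were gained, lost or constant over the restoration libraries for the CD300 genes, the SIRP genes, all 10 genes, 2 other gene lists and all regions assigned to a gene; bars give the share, lines the exact 95% interval and n the number of regions. The gained share was 25.6% for the 10 genes and 4.86% for all assigned regions.

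Across the course, CD11b-high cells had 26 of the 39 regions open, 66.7% (49.8 to 80.9), while 51.3% of all assigned regions were open in that library. Day 0 had 14 open, 35.9% (21.2 to 52.8), beside 52.1% of all assigned regions, and day 4 had 24, 61.5% (44.6 to 76.6), beside 51.0%. Day 8 had 33 open, 84.6% (69.5 to 94.1), beside 67.3%, and day 12 had 23, 59.0% (42.1 to 74.4), beside 49.9%. The share lay below that of all regions at day 0 and above it in each library on Dox, although the interval contained the share of all regions at day 0, 4 and 12 and in CD11b-high cells. After withdrawal 22 were open at 4 days, 56.4% (39.6 to 72.2), beside 73.3% of all assigned regions. At 8 days 18 were open, 46.2% (30.1 to 62.8), beside 59.6%, and at 12 days 10 were open, 25.6% (13.0 to 42.1), beside 46.0%. At 4 and 12 days off the whole interval lay below the share of all regions. Since the genes were chosen with these calls known and regions are not independent, these comparisons describe the genes and support nothing further. The SIRP genes had 4, 11, 16 and 11 of 19 regions open at day 0, 4, 8 and 12 and 8, 6 and 2 at 4, 8 and 12 days off. The CD300 genes had 10, 12, 16 and 11 of 19 open at day 0, 4, 8 and 12 and 14, 12 and 8 at 4, 8 and 12 days off. In these counts the SIRP genes held fewer open regions than the CD300 genes at day 0 and after withdrawal, and as many at day 8 and 12.

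**Figure D4:**
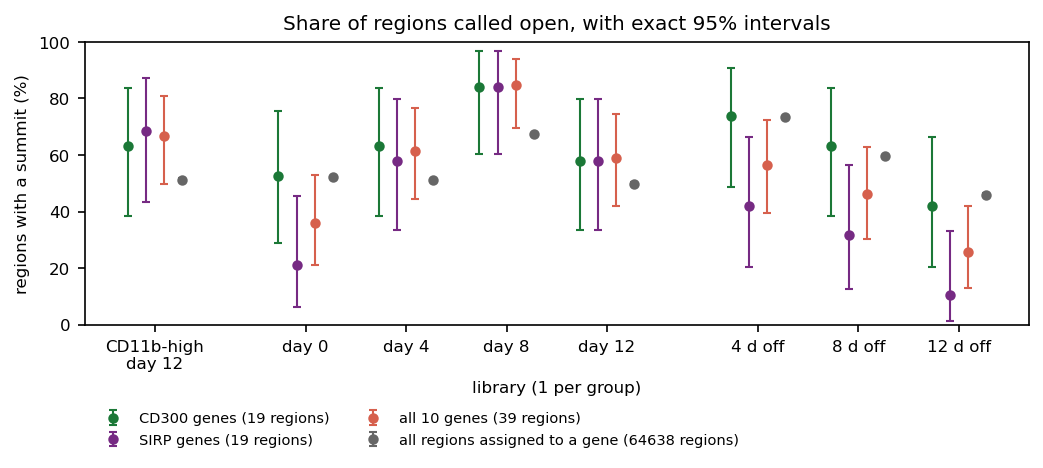
Percentage of regions with a summit (y axis) in each library (x axis, 1 library per group) for the CD300 genes, the SIRP genes, all 10 genes and all regions assigned to a gene; points are shares and lines exact 95% intervals. The 10 genes had 84.6% of their regions open at day 8 and 25.6% at 12 days off.

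Set directly against each other, 13 regions had a summit at day 12 but none at day 0, 33.3% (19.1 to 50.2), against 13.5% of all assigned regions, and 4 had one at day 0 but none at day 12, 10.3% (2.87 to 24.2), against 15.7%. Besides the 10 gained regions, the 13 included 2 regions of Sirpb1c and the region of Cd300e at chr11:115059825-115060180. The 4 were the lost region of Sirpa, the start region of Cd300lb and the 2 regions of Cd300e that neither day-12 library held.

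CD11b-high cells and total cells of day 12 shared 22 of the 27 regions open in either, 81.5% (61.9 to 93.7), against 67.4% of all assigned regions open in either, a share that the interval contains. Only in CD11b-high cells were 4 open, 10.3% (2.87 to 24.2), near the 10.5% of all assigned regions. They were 1 each at Cd300a and Sirpa and 2 at Sirpb1c, with scores of 3.25 to 6.58. In total cells alone 1 was open, 2.56% (0.0649 to 13.5), against 9.15%, the gained region 13494 bp from Sirpb1a. Of the 10 gained regions, which were chosen without the CD11b-high library, 9 were open in it, 90.0% (55.5 to 99.7), beside 83.7% of all gained regions.

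After withdrawal, 5 of the 10 gained regions were open at 4 days, 50.0% (18.7 to 81.3), 2 at 8 days, 20% (2.52 to 55.6), and 1 at 12 days, 10.0% (0.253 to 44.5). Of the 3144 gained regions assigned to any gene, 75.6%, 50.0% and 26.9% were open at these times, so each share of the 10 was lower while its interval contained the overall share at all 3 times. Open at no time off were 5 of the 10, 50.0% (18.7 to 81.3), against 20.9% of all gained regions, a share that the interval also contains. This was not particular to the 10 genes. Among the other paired receptors described below it was 9 of 19, 47.4% (24.4 to 71.1). Among the genes for adaptors, phosphatases, kinases and ligands it was 5 of 13, 38.5% (13.9 to 68.4). Those of the 10 genes were the region of Pirb, 1 region each of Cd300lf and Sirpb1b and 2 of Sirpb1a. The 5 that were open at 4 days off were those of Cd300a and Sirpa, the start region of Cd300lf and 2 of Sirpb1b. All 10 constant regions were open at 4 and 8 days off, near the 98.7% and 97.6% of all constant regions. At 12 days off 6 were open, 60% (26.2 to 87.8), an interval wholly below the 91.8% of all constant regions. The genes were chosen with these calls known and their regions are not independent, so this share describes them and supports nothing further. The 4 constant regions without a call at 12 days off were the start region of Cd300a, 2 regions of Cd300lb and the region 1598 bp from Sirpb1a. Their day-0 summits stood at the 9.86th, 14.2nd, 46.1st and 17.3rd percentile of that list. Those of the 6 regions still called stood at the 25.7th to the 85.8th. All constant regions were not matched to these 10 by score or rank. The list of 12 days off was the shortest of the 8. The part of its length, or of a low rank at day 0, in these missing calls was not tested.

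**Figure D5:**
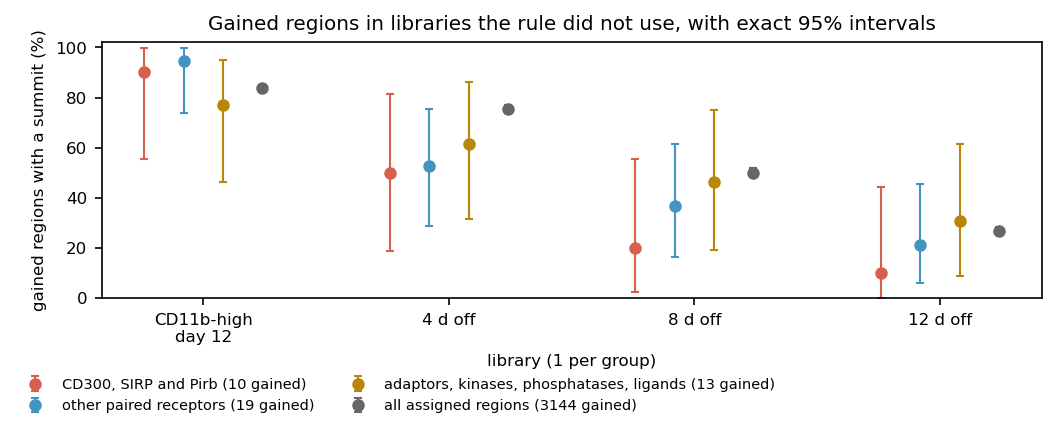
Percentage of gained regions with a summit (y axis) in the CD11b-high library and at 4, 8 and 12 days off Dox (x axis, 1 library per group), for the 10 genes, 2 other gene lists and all assigned regions; points are shares and lines exact 95% intervals. For the 10 genes the shares were 90.0%, 50.0%, 20% and 10.0%.

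Among other members of the same receptor classes (Pira, Lilr, Pilr, Siglec, Cd200r, Trem and Clec genes and the remaining Cd300 genes), 41 of 45 matched the gene table and held 19 gained and 4 lost among 100 regions, 19% (11.8 to 28.1) and 4.00% (1.10 to 9.93). Of all assigned regions 4.86% were gained and 5.49% lost, and the lost interval contains the latter. This list was chosen with earlier results of these data known, so its shares describe it only. More gained than lost regions were found at 18 genes, more lost at 3 and equal numbers at 13, while 7 had no region. The 18 count Cd300c2 and Cd300ld4 separately for 1 region that they share. Clec4n, which encodes the fungal receptor dectin-2, had 2 gained and 0 lost among 3 regions. Cd300c and Cd200r3 had 1 gained and 0 lost each, among 5 and 12 regions. Cd300c2 lies between Cd300ld and Cd300e and overlaps Cd300ld4. The region in the overlap, chr11:115004035-115004427, was gained, with scores of 18.0 in CD11b-high cells, 33.3, 36.2 and 30.9 at day 4, 8 and 12 and 14.4 and 3.41 at 4 and 8 days off. Within the CD300 cluster this region had the highest day-12 score of the gained ones. After withdrawal, 10, 7 and 4 of the 19 gained regions were open at 4, 8 and 12 days. These were 52.6%, 36.8% and 21.1%, against 75.6%, 50.0% and 26.9% of all gained regions.

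The partners of paired receptors, 12 genes for adaptors, phosphatases, kinases and ligands, held 13 gained and 2 lost among 99 regions, 13.1% (7.18 to 21.4) and 2.02% (0.246 to 7.11). Beside these stand 4.86% gained and 5.49% lost of all assigned regions, the latter inside the lost interval. Earlier results were known when this list was chosen too. The kinase gene Syk had 4 gained among 19 regions and Ptpn11, the SHP-2 phosphatase, 3 among 14, both with 0 lost, and Fgr had 1 gained among 8. Cd200, the ligand of the Cd200r receptors, had 1 region, which was lost. Tyrobp and Ptpn6, named after their values were seen because they encode DAP12 and SHP-1, each had 1 gained and 0 lost, among 3 and 5 regions. Cd47, the ligand of Sirpa, had 0 gained and 0 lost among 12, as had Fcer1g among 2.

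In the promoter windows of RefSeq, which gave one for 9 of the 10 genes, GAGGAA or TTCCTC stood in 4, those of Pirb, Cd300lf, Cd300a and Cd300ld, with 3, 2, 1 and 1 matches. Of all 32851 windows 28.3% held it. Of the 169 windows that overlapped a gained region 49.1% held it, of the 9723 that overlapped a constant region 25.7% and of the 262 that overlapped a lost region 28.6%. A higher share in gained than in constant windows was not particular to this core. The C/EBP letters TTGCNNAA stood in 15.4% of gained and 7.81% of constant windows. For the RUNX letters TGTGGT the shares were 24.3% and 12.1%, and for the AP-1 letters TGANTCA 6.51% and 4.08%. Both windows of the 10 genes that overlapped a gained region, those of Pirb and Cd300lf, held GAGGAA or TTCCTC. These 2 windows are too few to set against the shares above. A match of these letters is a description and does not show a bound site.

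For Cd300a, which shares the largest number of regions with Sirpa and comes first by name, the most similar course was sought among 6356 other genes with at least 4 regions, by the mean absolute difference in the share of regions open over the 8 libraries. Commd7, Lnx2 and Mnt, each with 7 regions, were closest at 3.57 percentage points, and 5 genes in all lay at that distance. The shares of Cd300a were 71.4% in CD11b-high cells, 42.9%, 57.1%, 85.7% and 57.1% at day 0, 4, 8 and 12, and 71.4%, 57.1% and 42.9% at 4, 8 and 12 days off. Shares over few regions coincide easily, and all genes share the list length of each library.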

How the data were processed

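ATAC-seq summit lists of 8 libraries, 1 per group, were analysed. The authors used Picard 2.14.0 and MACS2 on the mm10 build, per the submitters' processing notes. Aligner, MACS2 version and depth: not given in the sources used here. Each deposited list gives 1-base summits with a score taken as −log10 of a p-value or of a q-value, since the smallest deposited scores were 1.30 to 1.39, where a threshold of 0.05 falls. Peaks were called per library.

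Summits of the 19 autosomes, X and Y were widened by 150 bp on either side and merged over the 8 lists (Python 3.11.15, pandas 2.3.3). A region was assigned to the nearest of 21887 protein-coding gene spans in a RefSeq table (GRCm38.p6), measured from its midpoint. A region equally near to 2 genes, mostly inside both, counted for both, as 870 did. The table gives no exons, so positions within genes were not analysed here. Strands came from the promoter table. Shares carry exact Clopper-Pearson 95% intervals (scipy 1.17.1) over regions, which are not independent. Class calls and gene assignment were tested on simulated lists.

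The 10 genes and the gene lists were chosen with earlier results of these data known. Named besides the 10 genes were up to 4 genes per list with the largest difference between gained and lost regions, genes tied with a member, and the 3 genes most like the member with most regions. Gpr142, Gprc5c and Tmem104, named by this rule as neighbours, each had 1 gained or lost region among 6. Alternatives were a score of at least 5 or 10, lists of equal length, half-widths of 100 and 250 bp, a distance of 20 kb, tied regions left out and changed regions with a summit of the compared lists within 1 kb left out.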

Additional observations from a re-analysis of the deposited data

How the results depend on the processing

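The count of 10 gained regions lay between 8 and 13 under all alternatives except a score of at least 10, where it was 6. It was 10 with lists of equal length, with half-widths of 100 and 250 bp and when changed regions with a compared summit within 1 kb were left out. The share of all assigned regions called gained moved more with the rule. As reported it was 4.86%, against 25.6% of the 39 regions. With day 12 alone against day 0 it was 13.5%, against 33.3%. Without the day-4, day-8 or day-12 list it was 9.94%, 5.26% and 7.49%, against 28.2% each time. These rules were chosen after seeing the data. Lists of equal length left 68.8% of the regions open at day 8, against 84.6% in the full lists. The count of lost regions was 2 at a score of at least 5, 0 at a score of at least 10 and within 20 kb of a gene, 3 with lists of equal length and with a half-width of 100 bp. Constant regions numbered 6 at a score of at least 10. The share of gained regions open at 12 days off was 0 at a score of at least 10 and with tied regions left out, since the 1 such region was tied with Rab37 and scored 7.63 there. Alternatives chosen after seeing the data gave 4 lost regions with day 12 alone against day 0 and 3 without the day-8 list. The other 120 comparisons of counts and shares stayed within 1.5 times the reported count or inside the interval of the reported share. For the number of regions and the difference between gained and lost regions of single genes, 23 comparisons moved by more than 1.5 times or to or from 0, and 104 did not. That difference is 0 as reported at Sirpa and was -1 under 2 settings and 1 under 2. It was -1 at Cd300lb under 5 settings and at Cd300e under 2, ranged up to 2 at Sirpb1c and was 0 at Cd300lf with tied regions left out. It stayed above 0 under every setting at Cd300a, Sirpb1a, Sirpb1b and Pirb. With 1 library per group, list length, depth and condition cannot be told apart. No paired analysis was possible because each group held 1 library.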
